A study of Mus musculus with 8 samples.

Results

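The receptors for serotonin, dopamine, noradrenaline and acetylcholine were followed across the cell types of the mouse cerebral cortex. They are 46 genes of the 32285 in the count files, chosen by symbol alone: 14 serotonin, 5 dopamine and 9 adrenergic receptors, 5 muscarinic acetylcholine receptors and 13 subunits of nicotinic acetylcholine receptors. Single-nucleus RNA counts came from the cortex of 8 C57BL/6J mice at postnatal day 25, 1 library per mouse, with the medial cortex removed. Of these, 4 mice were wild type (WT) and 4 were heterozygous for Chd8 (Chd8het, Chd8+/-), a gene for a chromatin remodeller, with 2 males and 2 females of each genotype. Per the labels the mice formed 4 pairs matched for litter and sex, but the labels do not say which replicate numbers pair. Libraries with replicate number 1 carried a single index and those numbered 2 a dual index, in both sexes and both genotypes. Which allele of Chd8 was used is not described in the sources used here.

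Serotonin, dopamine, noradrenaline and acetylcholine reach the cortex mostly through long axons from small groups of neurons below it, and they set arousal, attention and plasticity through the receptors that each cortical cell type carries. All dopamine, adrenergic and muscarinic receptors, and all serotonin receptors except the type 3 channel, couple to G proteins: some raise cyclic AMP through Gs, some lower it through Gi, and some release calcium through Gq. Nicotinic receptors and the serotonin type 3 receptor are ion channels built from several subunits, and in the cortex both are known from interneurons of the superficial layers.

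Each library held 69503598 to 98132783 UMIs (unique molecular identifiers, 1 per captured RNA molecule) over 9140 to 14280 barcodes, and any 2 libraries shared 27 to 63 barcode sequences. Of 82168 nuclei that passed the filters, 62640 (76.2%) were given to a cell type by a gate on marker genes that include no receptor of the set. All type names below mean nuclei like that type by these markers, and 19 types with at least 30 nuclei in every library were used. Below, highest, leading and any type refer to these 19. In the 4 gated types left out (Car3-like, striatal projection-like, endothelial-like and mural-like), 12 of the 38 receptors with at least 100 UMIs had a pooled level above their highest mean, 10 of them in striatal-like nuclei. Levels are counts-per-million values (CPM) of the summed nuclei of a type, so they compare 1 gene across types and not 2 genes with each other. Fewer cells expressing a gene and less RNA per cell cannot be told apart in such sums. RNA of neurons was also counted in glial nuclei: Slc17a7, a vesicular glutamate transporter of excitatory neurons, read 213 ± 44.6 CPM (SD, n = 8) in microglia-like nuclei and 225 ± 27.2 in excitatory ones. Gad2, an enzyme of GABA synthesis, read 16.7 ± 3.05 in microglia-like and 292 ± 21.8 in inhibitory nuclei. Levels in glia, low or high, are given as measured, and the part of free RNA or of remaining doublets in them was not tested. Chd8 itself read 75.9, 82.0, 79.4 and 80.1 CPM over all nuclei of the WT libraries and 76.4, 87.9, 76.7 and 77.0 in those labelled Chd8het, which overlapped. Because the kit counts RNA near the 3′ end and the allele is not described, this level does not check the genotype labels.

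Of the 46 receptors, 38 had at least 100 UMIs over all kept nuclei, and the other 8 (Adra2b, Drd4, Drd5, Chrm5, Chrna10, Chrna6, Chrnb4 and Htr3b) had between 4 and 92. By mean level, 16 of the 38 were highest in an inhibitory type, 13 in an excitatory type and 9 in a glial or vascular type (42.1%, 34.2% and 23.7%). Over all genes with at least 100 UMIs these shares were 18.3%, 14.8% and 66.8%. The split counts receptors whose leading type rests on few UMIs, such as Chrm4 (4) and Drd3 (11), and for 10 of the 38 that type changed in at least 1 of 13 alternative settings. In 3 of the 38 (7.89%) the lowest of the 8 libraries in the leading type lay above every library of every other type. The same was true of 13.1% of all genes with at least 100 UMIs, so this share was not above the background. The 3 were Adra1a in Lamp5-like, Adra1b in Vip-like and Drd1 in L6b-like nuclei. A pair of leading types stood clear of the rest in 3 more, Chrna7, Htr4 and Htr3a, and allowing up to 3 leading types gave 15.8% of the receptors against 16% of all genes. Because the types are drawn from the same nuclei, these levels carry no test.

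**Figure D1:**
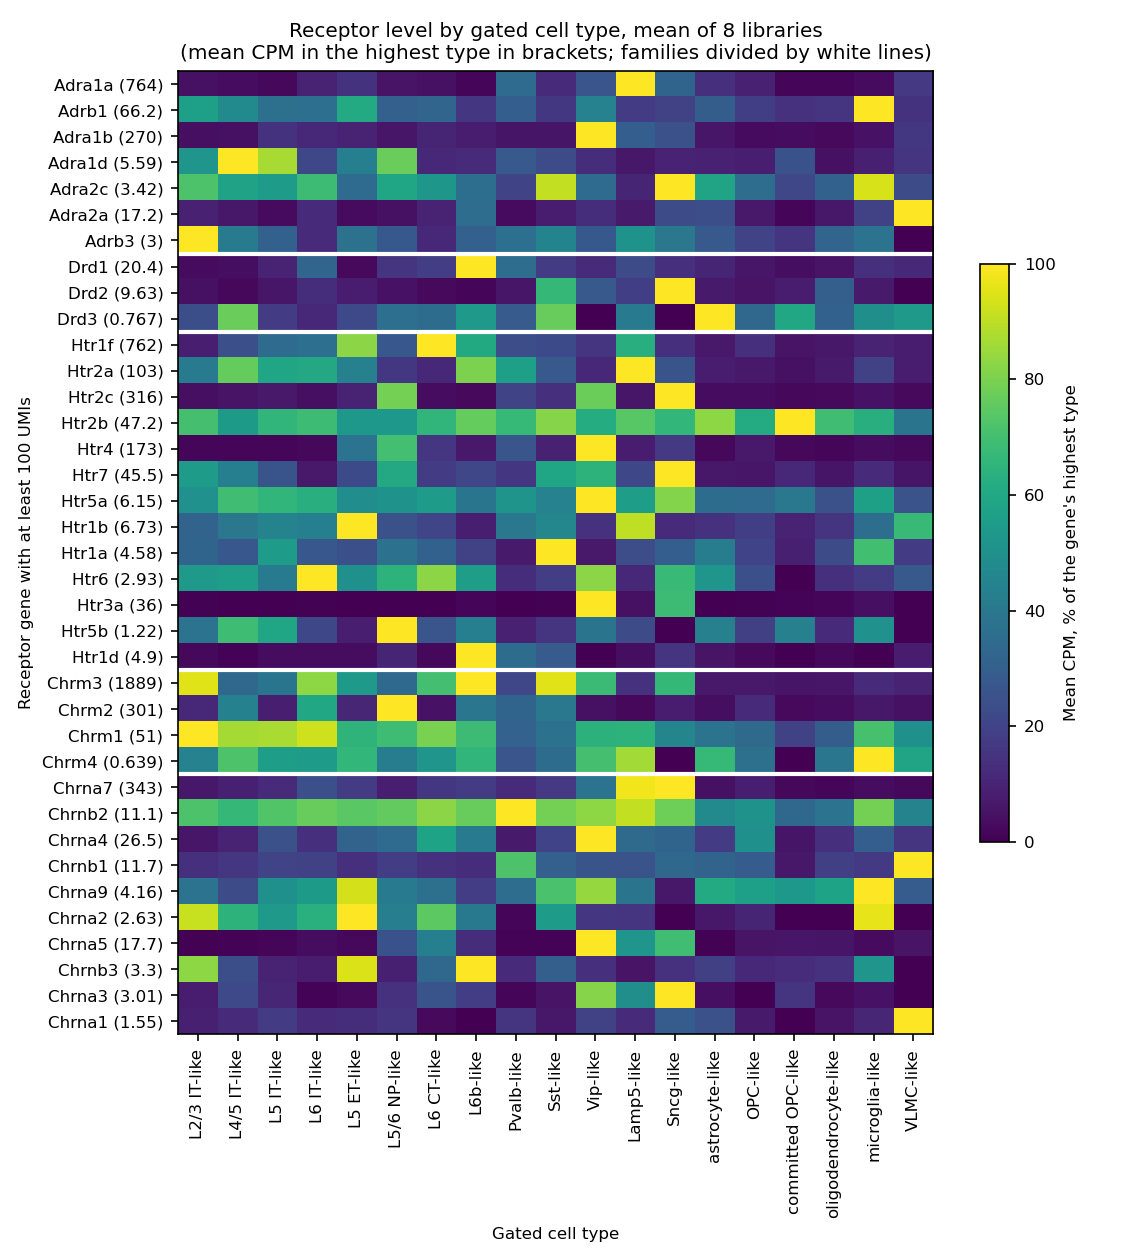
Mean level of 37 receptor genes with at least 100 UMIs (rows) in each of 19 gated cell types (columns), as a percentage of that gene's own highest type, with the mean CPM in the highest type in brackets. Adra1b is bright in Vip-like nuclei alone, whereas Htr2b (18.2 to 47.2 CPM) and Chrnb2 (3.73 to 11.1 CPM) vary little over the types.

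The 2 of these 3 genes that have an entry in the RefSeq promoter table are shown with the 300 bases around each of their annotated starts (250 before and 50 after, GRCm38.p6, 5′ to 3′ on the gene's strand), because each has 2 starts of differing base composition. Capitals mark a GC box, searched as GGGCGG on both strands. The TATA box, searched as TATAAA on both strands, was in none of the 4.
Adra1b, distal start, chr11:43901188-43901487, minus strand: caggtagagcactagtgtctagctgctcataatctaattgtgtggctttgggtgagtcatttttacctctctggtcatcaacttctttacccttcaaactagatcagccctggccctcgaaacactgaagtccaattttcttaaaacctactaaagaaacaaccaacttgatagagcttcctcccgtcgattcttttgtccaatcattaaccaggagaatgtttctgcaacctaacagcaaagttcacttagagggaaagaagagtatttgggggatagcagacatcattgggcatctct
Adra1b, proximal start, chr11:43836440-43836739, minus strand: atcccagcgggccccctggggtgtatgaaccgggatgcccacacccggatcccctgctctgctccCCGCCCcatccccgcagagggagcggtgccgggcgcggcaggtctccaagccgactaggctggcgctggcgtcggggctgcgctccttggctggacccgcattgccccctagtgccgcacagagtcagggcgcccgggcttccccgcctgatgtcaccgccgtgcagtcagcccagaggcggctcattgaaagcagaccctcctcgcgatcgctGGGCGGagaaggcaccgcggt
Drd1, distal start, chr13:54055609-54055908, minus strand: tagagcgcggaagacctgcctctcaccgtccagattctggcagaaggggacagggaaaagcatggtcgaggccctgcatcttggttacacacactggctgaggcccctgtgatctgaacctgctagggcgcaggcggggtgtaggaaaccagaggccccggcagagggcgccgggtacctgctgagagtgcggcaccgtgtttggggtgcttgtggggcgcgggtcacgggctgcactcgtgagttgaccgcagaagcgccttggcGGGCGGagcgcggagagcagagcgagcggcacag
Drd1, proximal start, chr13:54054731-54055030, minus strand: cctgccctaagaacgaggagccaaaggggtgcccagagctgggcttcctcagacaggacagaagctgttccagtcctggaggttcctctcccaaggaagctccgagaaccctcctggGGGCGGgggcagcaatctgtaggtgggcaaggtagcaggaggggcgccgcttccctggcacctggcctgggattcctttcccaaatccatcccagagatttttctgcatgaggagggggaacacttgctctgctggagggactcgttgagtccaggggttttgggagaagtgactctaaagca
The distal window of Adra1b holds no GC box and is 42.3% G and C, and its proximal window holds 2 and is 71.3% G and C. Both windows of Drd1 hold 1 GC box, at 65.7% and 59.3% G and C. Over all 32851 windows of this length, 35.7% hold a GC box and 13.6% a TATA box. Among 40 windows of the receptors, 57.5% hold a GC box and 5% a TATA box. Of the 46 receptors, 35 have an entry.

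Of the 3 alpha-1 adrenergic receptors, which act through Gq, Adra1a and Adra1b each stood clear in 1 type and Adra1d did not. For each named gene the values of the 8 libraries are given as WT male 1, WT male 2, WT female 1 and WT female 2, then the 4 Chd8het libraries in the same order. Adra1a, the alpha-1A receptor (chr14:66635251-66771168, plus strand, GRCm38), read 803, 787, 712, 738, 732, 693, 784 and 859 CPM in Lamp5-like nuclei, a class that includes neurogliaform interneurons of the upper layers. Every one of these lay above the highest value in any other type, 324. Pvalb-like nuclei came next at 266 ± 24.7 CPM (SD, n = 8), so the leading type was 2.87 times the next. Adra1b, the alpha-1B receptor (chr11:43774606-43901210, minus strand), read 263, 267, 262, 269, 277, 296, 258 and 271 CPM in Vip-like nuclei, interneurons that mostly inhibit other interneurons. These 8 values were close together and 3.33 times the mean of Lamp5-like nuclei (81.2 ± 21.2), with no overlap with any type. The 2 genes thus led in different interneuron types. Adra1d, the third receptor of this kind, read 4.47, 10.7, 3.44, 5, 4.60, 8.33, 3.79 and 4.40 CPM in L4/5 IT-like nuclei, and 9 other types overlapped that range.

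Adrb1, the beta-1 receptor, which acts through Gs, read 84.0, 43.7, 77.9, 42.7, 92.5, 35.2, 84.1 and 69.8 CPM in microglia-like nuclei, its highest type. The 4 single-indexed libraries (77.9 to 92.5) all lay above the 4 dual-indexed ones (35.2 to 69.8), and 4 other types overlapped, L5 ET-like nuclei being next at 40.4 ± 10.6. Adrb3 did not exceed a mean of 3 CPM in any type. Of the alpha-2 receptors, which act through Gi and dampen transmitter release, Adra2a was highest in nuclei like vascular and leptomeningeal cells, VLMC-like (17.2 ± 10.1 CPM, from 0 to 28.6), Adra2c did not exceed a mean of 3.42 (6.74 in the pooled striatal-like nuclei, 16 UMIs), and Adra2b had 4 UMIs in all.

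The 5 dopamine receptors had from 68 to 1411 UMIs each over all kept nuclei. Drd1, the main Gs-coupled dopamine receptor (chr13:54051183-54055705, minus strand), read 28.3, 14.6, 19.7, 15.2, 23.0, 15, 29.5 and 18 CPM in L6b-like nuclei, the deepest cortical neurons. All 8 lay above every library of the other types, and Pvalb-like nuclei came next at 7.31 ± 1.5. Under the stricter gate Drd1 no longer stood clear, and the striatal-like nuclei, which are not among the 19 types, read 46.8 CPM when pooled. The L6b-like nuclei also carried L6 CT markers, at a median log level of 1.2 against 0.539 for their own, the one tested type in which another type's markers were above its own. Here too the 4 single-indexed libraries (19.7 to 29.5) lay above the 4 dual-indexed ones (14.6 to 18). Drd2, the Gi-coupled receptor that marks one of the main classes of striatal projection neurons, read 14.5, 8.35, 0, 15.3, 12.2, 2.11, 16.5 and 8.14 CPM in Sncg-like nuclei (29 UMIs), followed by Sst-like nuclei at 6.42 ± 3.84. Most of its UMIs were elsewhere: 592 of 1064 (55.6%) fell in 299 nuclei that carry striatal projection markers. Those nuclei were uneven, with 0, 47, 30 and 129 in the WT libraries and 1, 28, 0 and 64 in the Chd8het ones, and were left out of the types compared. Drd1 had 7.87% of its UMIs there, Htr1d 11.3% and Htr2c 2.52%. Drd3 (185 UMIs) did not exceed a mean of 0.767 CPM in any of the 19 types, with libraries in astrocyte-like nuclei, the highest, at 0, 1.66, 0.589, 2.23, 0, 0, 0 and 1.66. It read 5.9 CPM in the pooled striatal-like nuclei (14 UMIs). Drd4 had 4 UMIs in its highest type, in 3 WT Vip-like libraries, at 3.61, 3.75 and 4.33 CPM with the other 5 at 0.

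**Figure D2:**
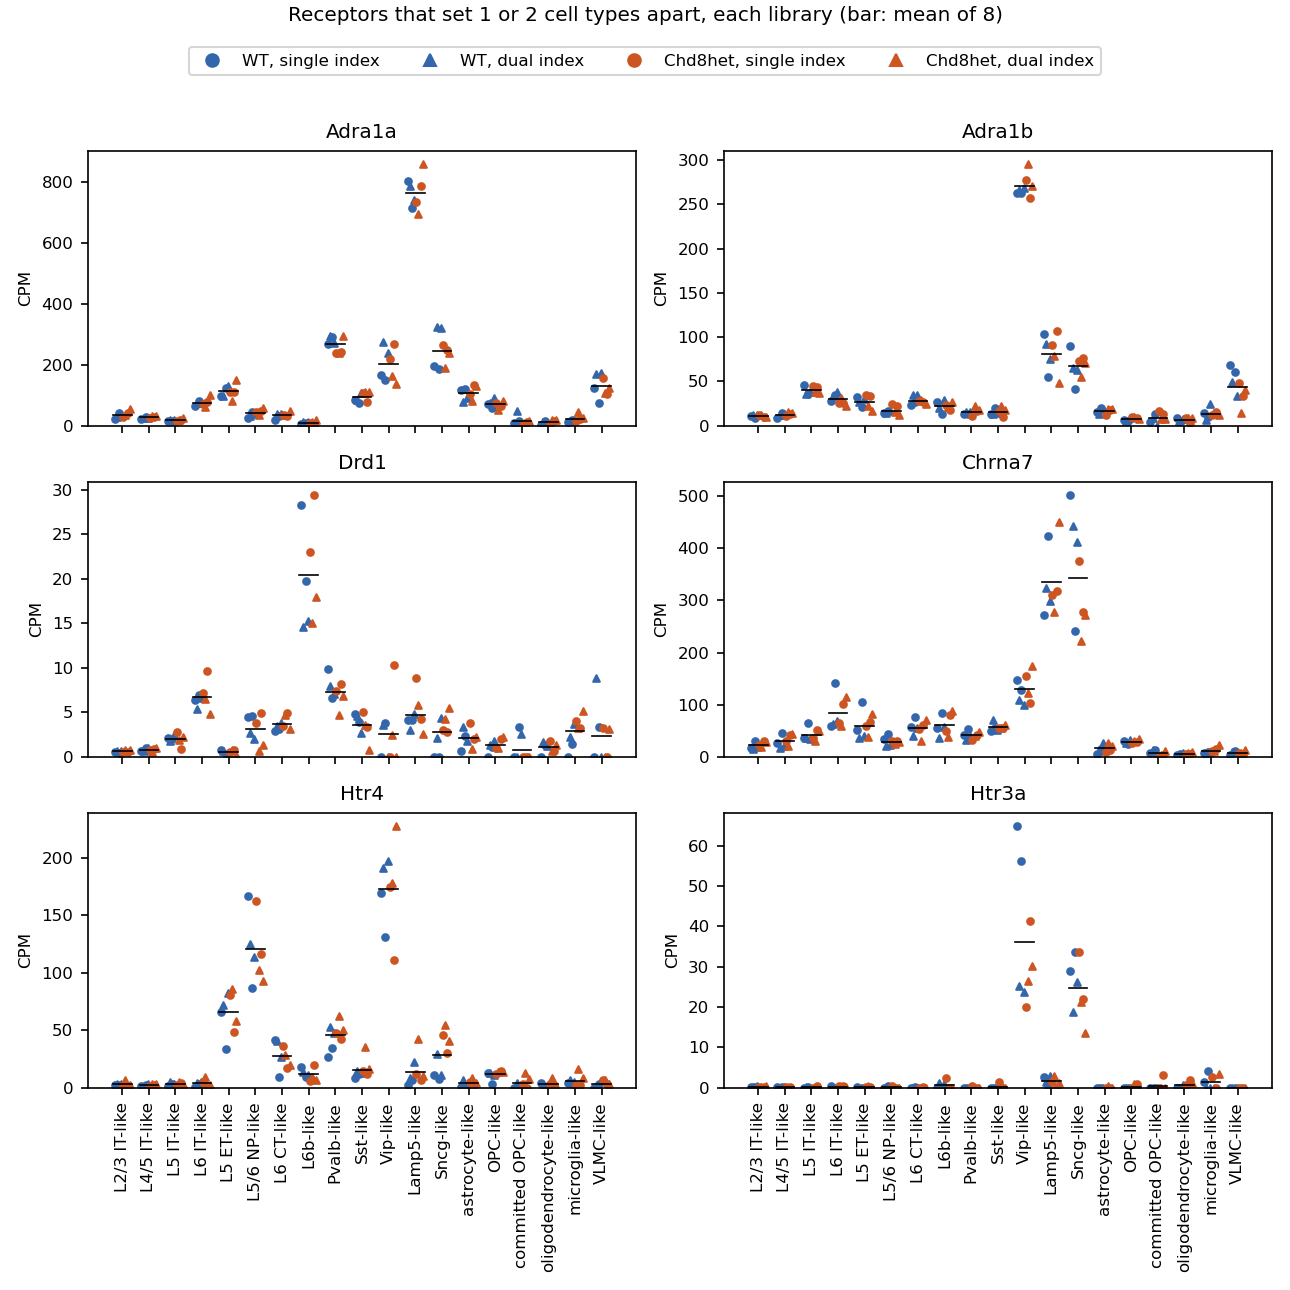
CPM of 6 receptors in each of 19 gated cell types, 1 point per library, coloured by genotype and shaped by index type, with a bar at the mean of the 8 libraries. All libraries of the leading type, or pair of types, lie above those of the other types, for example Adra1b in Vip-like nuclei from 258 to 296 CPM against at most 106 elsewhere. For Drd1 this did not hold under the stricter gate.

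Among the serotonin receptors, Htr1f, a Gi-coupled receptor and a target of migraine drugs (chr16:64924729-65105854, minus strand), read 747, 653, 971, 677, 778, 539, 841 and 889 CPM in L6 CT-like nuclei, the neurons that project to the thalamus. L5 ET-like nuclei (630 ± 125 CPM), which project to the brainstem and spinal cord, overlapped that range. Lamp5-like (482 ± 61.2) and L6b-like nuclei (463 ± 46.3) were lower, and every library of both lay under the lowest of L6 CT-like nuclei. Htr2a, the Gq-coupled receptor through which psychedelics act, read 110, 102, 99.2, 87.6, 115, 103, 111 and 98.2 CPM in Lamp5-like nuclei. L6b-like (82.5 ± 25.8) and L4/5 IT-like nuclei (78.6 ± 12.7) overlapped it, and 6 types reached at least 50% of the highest mean. Its relative Htr2c (chrX:146962513-147197277, plus strand) read 311, 343, 168, 364, 214, 650, 233 and 247 CPM in Sncg-like nuclei, a class that includes Cck basket cells. L5/6 NP-like (250 ± 48.2) and Vip-like nuclei (245 ± 80.2) overlapped that range, and Pvalb-like nuclei followed at 64.6 ± 19.9.

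The library of Chd8het male 2 stood apart for Htr2c, and also for Htr4, for which it was the highest in 14 of 19 types (for example 16 CPM in microglia-like nuclei against 2.16 to 8.51 in the others). For Htr2c it was the highest in 15 of the 19 types, among them microglia-like (41.6 CPM, against 6.56 to 22.1 in the other libraries) and astrocyte-like nuclei (25.9, against 3.86 to 11.6), and 81.5 CPM over all nuclei against 19.4 to 46.8. This library also held the most L5/6 NP-like nuclei, in which both genes are high, 931 against 181 to 619 in the others. The part of these nuclei or of their free RNA in the levels was not tested. Ttr, the leading transcript of the choroid plexus, where Htr2c is also strong, had 3 to 10 UMIs per library, with 7 in this one. That check was chosen after the values of Htr2c were seen.

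Htr2b read 29.2, 63.9, 49.5, 35.1, 47.6, 56.1, 42.3 and 53.8 CPM in committed OPC-like nuclei (early oligodendrocytes), its highest type, and overlapped 16 of the 18 other types. The gene lies within Psmd1, a proteasome subunit gene on the opposite strand that ranged only from 67.2 to 99.1 CPM over the types. Strandedness of the counting is not given in the sources used here, so reads of the 2 genes cannot be told apart. Htr4, a Gs-coupled receptor, led in Vip-like (173 ± 37.0 CPM) and L5/6 NP-like nuclei (121 ± 29.9), and each of their 16 values, the lowest at 87.0, lay above the highest elsewhere, 85.5 in L5 ET-like nuclei. Htr7, also coupled to Gs, was highest in Sncg-like nuclei (45.5 ± 13.9), and 6 types overlapped. Htr3a, the subunit that forms the serotonin-gated channel, read 36.0 ± 16.5 CPM in Vip-like and 24.7 ± 7.13 in Sncg-like nuclei, and no other type exceeded a mean of 1.59. Under the stricter gate the level in Vip-like nuclei was 59.1. Its partner Htr3b had 48 UMIs, with its highest mean, 2.21 CPM, in Sncg-like nuclei. Htr1d was highest in L6b-like nuclei (4.90 ± 3.33), and Htr1a, Htr1b, Htr5a, Htr5b and Htr6 had highest means of 1.22 to 6.73 CPM with at least 10 types overlapping. The pooled striatal-like nuclei were above these for Htr1d (9.69 CPM), Htr1b (20.2) and Htr6 (4.64).

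The muscarinic receptors differed in how far they ranged over the types. Chrm3, a Gq-coupled receptor (chr13:9875486-10360847, minus strand), held 600716 UMIs and read 2046, 1762, 2284, 1718, 1862, 1534, 2067 and 1840 CPM in L6b-like nuclei. Sst-like (1805 ± 153) and L2/3 IT-like nuclei (1800 ± 203) did not differ from these beyond their spread, and the lowest level was 108 in committed OPC-like nuclei. Chrm2, a Gi-coupled receptor found on axon terminals (chr6:36388084-36528414, plus strand), read 336, 357, 241, 345, 308, 280, 334 and 206 CPM in L5/6 NP-like nuclei. L6 IT-like (181 ± 41.0) and L4/5 IT-like nuclei (132 ± 53.9) overlapped it, and the range over types was 44.5-fold. A long non-coding gene on the opposite strand, 9330158H04Rik, partly overlaps Chrm2 and was also highest in L5/6 NP-like nuclei, at 37.8 CPM. Chrm1, the Gq-coupled receptor of cortical pyramidal cells, read 55.9, 53.7, 40.1, 48.5, 50.7, 63.2, 52.7 and 43.2 CPM in L2/3 IT-like nuclei, and 11 types overlapped. Chrm4 (195 UMIs) did not exceed a mean of 0.639 CPM, with libraries in microglia-like nuclei at 0, 0, 0, 2.44, 0, 1.60, 1.08 and 0, and Chrm5 had 10 UMIs.

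Of the 10 nicotinic subunits with at least 100 UMIs, 5 were highest in an inhibitory type, 2 in an excitatory type and 3 in a glial or vascular type. The last 3, Chrnb1, Chrna1 and Chrna9, had 27, 4 and 23 UMIs there and overlapped all 18 other types. Chrna7, which forms the homomeric alpha-7 channel (chr7:63098692-63212569, minus strand), read 503, 443, 242, 412, 375, 222, 277 and 271 CPM in Sncg-like nuclei. Lamp5-like nuclei were alike at 335 ± 66.6, and the lowest library of either type, 222, lay above the highest of all other types, 174 in Vip-like nuclei. Chrna4, part of the common heteromeric channel, read 32.4, 18, 45.0, 26.0, 5.72, 31.3, 43.8 and 10 CPM in Vip-like nuclei (73 UMIs), and 13 types overlapped. L6 CT-like nuclei followed at 15.4 ± 2.07, and OPC-like nuclei (oligodendrocyte precursors) at 13.3 ± 3.38. Its partner Chrnb2 read 10.9, 12, 9.49, 16.2, 10.4, 10.3, 9 and 10.9 CPM in Pvalb-like nuclei and overlapped in 16 of 18 other types. Chrnb2 partly overlaps the RNA editing gene Adar on the opposite strand, which read 34.6 to 106 CPM.

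The accessory subunit Chrna5 (chr9:54980880-55007779, plus strand) was highest in Vip-like nuclei (17.7 ± 10 CPM). Sncg-like (12.3 ± 4.60), Lamp5-like (9.21 ± 5.47) and L6 CT-like nuclei (7.65 ± 1.15) overlapped, and L2/3 IT-like nuclei read 0.102. Its neighbours on chromosome 9, Chrna3 and Chrnb4, had 219 and 54 UMIs. Chrna3 was highest in Sncg-like (3.01 ± 3.54) and Vip-like nuclei (2.46 ± 2.14). Chrnb1, best known from the receptor of muscle, read 18.8, 26.6, 10.1, 5.98, 15.9, 0, 6.58 and 9.31 CPM in VLMC-like nuclei (27 UMIs) and overlapped in all 18 other types. Chrna1, Chrna2, Chrna9 and Chrnb3 had highest means of 1.55 to 4.16 CPM.

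In the fit with sex as a term no receptor was called between the genotypes. With same-numbered libraries of a sex taken as the 4 pairs and used as a block, 1 was, Htr2c in Sst-like nuclei (0.25% of receptor tests, against 0.0149% for all genes). In Sst-like nuclei alone the block called 0.136% of all genes. Of 400 tests of a receptor in a type or in a pool (all, excitatory or inhibitory nuclei), 0 passed an adjusted p of 0.05 by edgeR's quasi-likelihood test with sex as a term and Benjamini-Hochberg adjustment, where 1 of 261916 tests over all genes did (0.000382%). DESeq2 also called 0, and 0.00611% of tests over all genes. At an unadjusted p under 0.05 edgeR gave 16, 7 higher and 9 lower in Chd8het (4% of tests, where all genes gave 2.26%, 1.29% higher and 0.972% lower), and with the block the share was 10.5% (6.11% for all genes). The fitted log2 change was within 0.5 in 369 of the 400 tests, 6 reached 1 or more, and the median standard error was 0.24. The median log2 change of the receptors was 0.01 over all nuclei (42 receptors), 0.02 in excitatory and -0.06 in inhibitory nuclei, beside 0.00 for all genes in each. By type it ranged from -0.24 in Vip-like nuclei (2 higher, 11 lower) to 0.27 in committed OPC-like nuclei (3 receptors). It was -0.22 in Sncg-like (4 higher, 7 lower) and 0.20 in astrocyte-like nuclei (9 higher, 3 lower). The all-gene median was -0.00 to 0.01 in these types. By family the median was 0.01 for serotonin, 0.07 for dopamine, 0.02 for adrenergic, 0.04 for muscarinic and 0.04 for nicotinic receptors. WT and Chd8het libraries did not overlap in 5 of 376 pairs of receptor and group of nuclei with at least 80 UMIs (1.33%), against 1.97% for all genes.

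In the type where each led, 23 receptors could be tested, and the 95% interval of the genotype difference held 0 in all but Chrna7 in Sncg-like (-0.87 to -0.10) and Htr6 in L6 IT-like nuclei (-1.76 to -0.35), both with an edgeR adjusted p above 0.99. These intervals come from the fit with sex as a term and do not use the pairs. Adra1a in Lamp5-like nuclei read 760 ± 42.1 CPM in WT and 767 ± 72.0 in Chd8het (SD, n = 4 each), a log2 change of 0.01 with a 95% interval from -0.21 to 0.23. Htr1f in L6 CT-like nuclei read 762 ± 145 and 762 ± 155, with an interval from -0.29 to 0.27. Adra1b in Vip-like nuclei had an interval from -0.24 to 0.36, Htr2a in Lamp5-like nuclei from -0.18 to 0.38, and Chrm3 in L6b-like nuclei from -0.33 to 0.13. Receptors with few UMIs had wide intervals, such as Chrna4 (-1.26 to 0.66) and Htr3a (-1.21 to 0.30) in Vip-like and Chrna2 in L5 ET-like nuclei (-1.01 to 0.78).

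The smallest unadjusted p belonged to Htr4 in Sncg-like nuclei. It read 10.9, 29.2, 7.45 and 10.9 CPM in the WT libraries and 45.8, 54.9, 30.2 and 40.7 in those labelled Chd8het, from 2 to 26 UMIs each. All 4 Chd8het values lay above all 4 WT values, with WT male 2 close beneath the lowest. The highest value was from Chd8het male 2, the library that was also highest for Htr4 in most other types, and without it the log2 difference was 1.43. The log2 difference was 1.45 (SE 0.36) and the edgeR adjusted p was 0.938, and in the type where Htr4 is highest, Vip-like nuclei, it was -0.02 (SE 0.21). Chrm2 in L5 ET-like nuclei read 40.6, 40.7, 34.5 and 40.4 CPM in WT and 28.6, 24.1, 22.7 and 30.5 in Chd8het, also without overlap, a log2 difference of -0.56 (SE 0.14, edgeR adjusted p = 1). The lack of overlap fixes that it was lower in Chd8het in 4 of 4 pairs and within each index type. The log2 difference was -0.55 with a single index and -0.57 with a dual index. Chrna4 in L2/3 IT-like nuclei read 1.28, 1.08, 1.22 and 1.11 CPM in WT and 2.05, 1.86, 2.10 and 1.81 in Chd8het, without overlap, at 14 to 35 UMIs per library. Its log2 difference was 0.73 (SE 0.20, edgeR adjusted p = 1), 0.73 with a single index and 0.75 with a dual index. Htr4, Chrm2 and Chrna4 are given here as chosen by their small p, so that their genotypes do not overlap is a description.

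**Figure D3:**
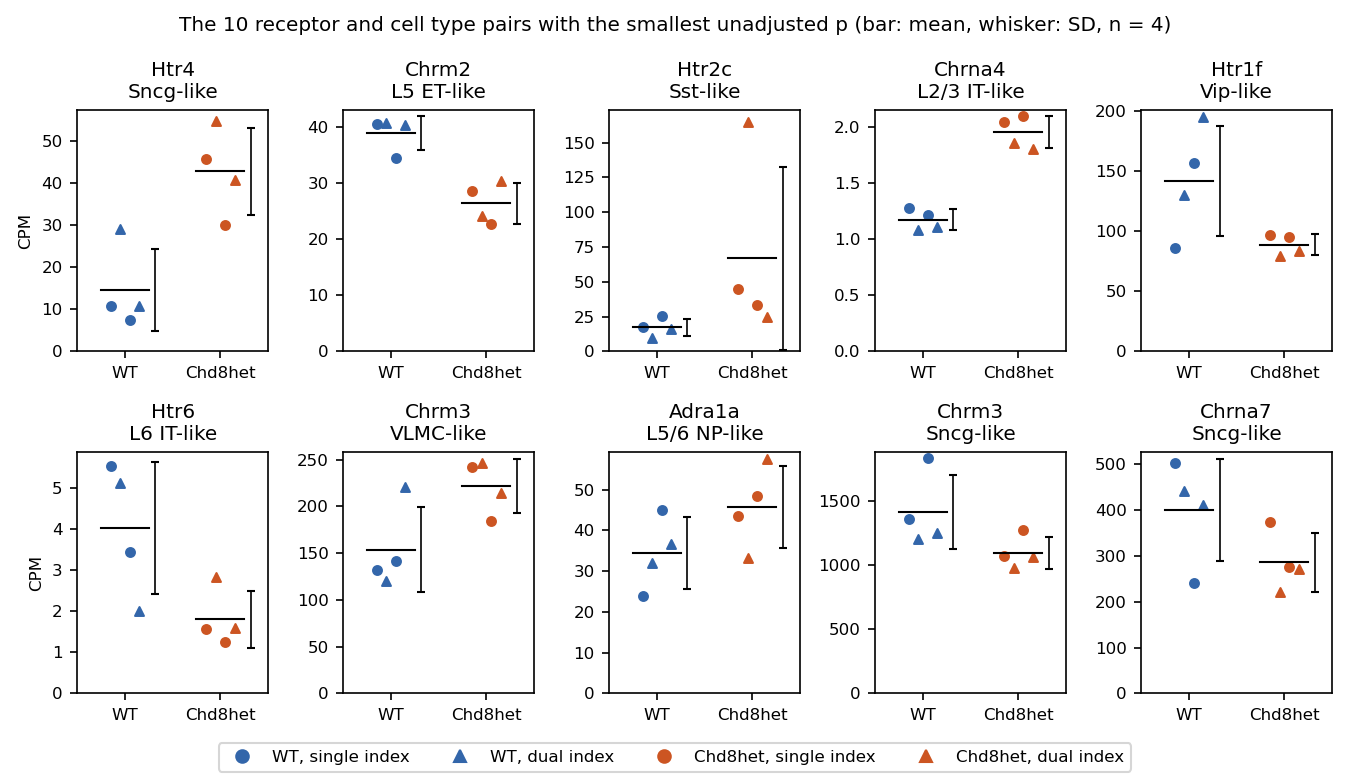
CPM per library of the 10 pairs of receptor and cell type with the smallest unadjusted p, WT beside Chd8het, with points shaped by index type, a bar at the mean and a whisker of 1 SD (n = 4 libraries each). The genotypes do not overlap in Htr4, Chrm2 and Chrna4 and overlap in the other 7, and Htr2c in Sst-like nuclei has 1 library at 165 CPM.

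Htr2c in Sst-like nuclei was the sole receptor called when the pairs were used as a block. It read 17.7, 9.98, 25.1 and 16.1 CPM in the WT libraries and 44.8, 165, 33.2 and 24.5 in those labelled Chd8het, where female 2 lay below the highest WT library and male 2 far above the rest. The log2 difference was 1.77 (SE 0.49, edgeR adjusted p = 1), and 1.71 (SE 0.33, edgeR adjusted p = 0.0323) with the replicate block, in which 39 of 261916 tests over all genes were called (0.0149%). Of these calls, 14 were in Sst-like nuclei, among 10305 genes tested there (0.136%). Without the male 2 pair the blocked difference was 0.79 (SE 0.23, edgeR adjusted p = 0.342), and without the male 1 pair it was 1.81 (edgeR adjusted p = 0.277). It was higher in Chd8het in 4 of 4 pairs, by a log2 of 0.86 with a single index and 2.86 with a dual index.

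Few nuclei carried the signal. Of 160 Sst-like nuclei of Chd8het male 2, 34 (21.2%) held an Htr2c UMI and 12 nuclei with 5 or more held 204 of its 234 UMIs. In the other libraries 3.11% to 11.3% of Sst-like nuclei held one and 0 to 5 nuclei held 5 or more. The 5 markers of L5/6 NP-like nuclei, a type rich in Htr2c, summed to 136 CPM in the Sst-like nuclei of this library, to 76.2 to 102 in WT and to 77.2 to 90.7 in the other Chd8het libraries. Markers of Sncg-like nuclei, another type rich in Htr2c, summed to 88.4 CPM there, to 163, 120 and 80.5 in Chd8het male 1, female 1 and female 2, and to 69 to 104 in WT. Those of Vip-like nuclei summed to 14.8 there, to 34.7, 22.4 and 15.8 in the same 3 libraries, and to 9.98 to 32.9 in WT. Chd8het male 1 was thus above all WT libraries for the Sncg-like and Vip-like lists, and Chd8het female 1 for the Sncg-like list. The 6 general markers of excitatory neurons summed to 303 CPM there, above the 194 to 274 of the other libraries. Striatal projection markers summed to 1518 CPM there, to 591 to 1059 in the other Chd8het libraries and to 764 to 1759 in WT. Htr2c read 230 CPM in the pooled striatal-like nuclei. The part of these cells or of their free RNA in the result was not tested.

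Both genotypes overlapped in the other 6 of the 10 pairs. Htr1f in Vip-like nuclei read 86.5, 130, 157 and 195 CPM in WT and 97.3, 79.5, 95.4 and 83.7 in Chd8het (log2 -0.66, SE 0.21). Htr6, a Gs-coupled serotonin receptor, read 5.54, 5.13, 3.45 and 2.02 in L6 IT-like nuclei of WT and 1.56, 2.83, 1.26 and 1.60 in Chd8het (log2 -1.05, SE 0.36), at 3 to 20 UMIs. Adra1a in L5/6 NP-like nuclei read 24.0, 32, 45.1 and 36.6 in WT and 43.5, 33.3, 48.5 and 57.5 in Chd8het (log2 0.39, SE 0.15). The ranges of the genotypes overlapped in each, and the L5/6 NP-like nuclei numbered from 181 to 931 per library. Chrm3 in VLMC-like nuclei differed by a log2 of 0.52 (SE 0.21), with 120 to 221 CPM in WT and 184 to 247 in Chd8het. In Sncg-like nuclei Chrm3 read 1205 to 1840 CPM in WT and 976 to 1275 in Chd8het (log2 -0.36, SE 0.15), and Chrna7 read 503, 443, 242 and 412 in WT and 375, 222, 277 and 271 in Chd8het (log2 -0.48, SE 0.20). The edgeR adjusted p of these 6 was between 0.997 and 1.

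The rest of the pathway was followed in 54 companion genes, of which 51 could be tested in at least 1 group of nuclei. Of 747 companion tests, 0 passed an adjusted p of 0.05 by edgeR, with or without the replicate block, and by DESeq2. Over all genes, 0.0149% of tests passed with the block, 0.000382% without it and 0.00611% by DESeq2. At an unadjusted p under 0.05 in the edgeR fit with sex as a term there were 13 higher and 5 lower in Chd8het (2.41% of tests). All genes gave 2.26%, with 1.29% higher and 0.972% lower. Genes of transmitter synthesis and packaging gave 0 of 44 tests at that level, and those of uptake and breakdown 1 higher and 1 lower of 92. Accessory proteins of nicotinic receptors gave 2 higher and 1 lower of 126, G proteins 3 higher and 1 lower of 188, and effectors and regulators 7 higher and 2 lower of 297. The medians of these 5 groups lay between -0.04 and 0.06 on the log2 scale.

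The 3 companions with the smallest p are given as chosen by that p, so that their genotypes do not overlap is a description. Over all companions with at least 80 UMIs, 21 of 732 values did not overlap (2.87%, against 1.97% for all genes). Lypd1, a membrane protein that dampens nicotinic receptors, read 2.87, 6.41, 7.65 and 6.31 CPM in oligodendrocyte-like nuclei of WT and 9.97, 17.0, 11.6 and 12.6 in Chd8het, at 4 to 27 UMIs (log2 1.12, SE 0.33). It is also 1 of the 5 markers of the L5/6 NP-like gate. Gnas, the Gs alpha subunit, read 77.8, 80.8, 71.7 and 70.7 CPM in L5 ET-like nuclei of WT and 93.4, 113, 85.6 and 90.5 in Chd8het (log2 0.34, SE 0.10). Adcy1, an adenylyl cyclase, read 50.1, 46.4, 54.9 and 49.5 CPM in OPC-like nuclei of WT and 66.9, 73.9, 74.7 and 59.8 in Chd8het (log2 0.46, SE 0.16). The edgeR adjusted p was 1 for each.

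More receptor tests were called between index types than between genotypes, and so were more tests over all genes. With index type as a term beside sex and genotype, 94 of 400 receptor tests (23.5%) passed an adjusted p of 0.05 by edgeR, 61 higher and 33 lower in dual-indexed libraries, against 17.2% of tests over all genes (8.93% higher, 8.23% lower), and they involved 21 receptors. With 1 library left out the count ranged from 44 to 115, and it was 44 without WT male 1 (10.5% of receptor tests, 8.9% of all), 54 without Chd8het male 1 (12.8% and 9.97%) and 61 without WT male 2 (14.6% and 10.2%), so it fell for all genes as well. Because index type equals the replicate number, it cannot be told apart from anything else that differed between replicates 1 and 2. The genes below were chosen after their values were seen. Htr2b was higher in dual-indexed libraries in 12 groups of nuclei and Chrnb1 in 10. Over all nuclei Chrnb1 read 1.61, 1.53, 1.29 and 1.25 CPM with a single index and 3.43, 3.58, 2.86 and 2.88 with a dual index, which did not overlap (log2 1.17, SE 0.10, edgeR adjusted p = 0.000228). Adrb1 was lower in dual-indexed libraries in 8 groups, and over all nuclei it read 31.0 to 34.9 CPM with a single index and 22.1 to 24.9 with a dual index (log2 -0.47, SE 0.07, edgeR adjusted p = 0.00187). Chrm2 was higher in 7 groups and Htr2c in 6. Over all nuclei Htr2c overlapped, at 19.4 to 35.3 CPM with a single index and 35.2 to 81.5 with a dual index. L5/6 NP-like nuclei, in which both genes are high, numbered 181 to 427 in single-indexed libraries and 452 to 931 in dual-indexed ones. The part of these nuclei in the Chrm2 and Htr2c results was not tested. Chrm3 passed in 9 groups, higher in 3 and lower in 6. In excitatory nuclei, which leave out the striatal-like ones, Drd2 read 0.151 to 0.267 CPM with a single index and 0.637 to 1.12 with a dual index (log2 2.05, SE 0.27, edgeR adjusted p = 0.00139). The number of striatal-like nuclei moved with it: the dual-indexed libraries held 28 to 129 and the single-indexed ones 0 to 30, and their part in the Drd2 result was not tested.

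**Figure D4:**
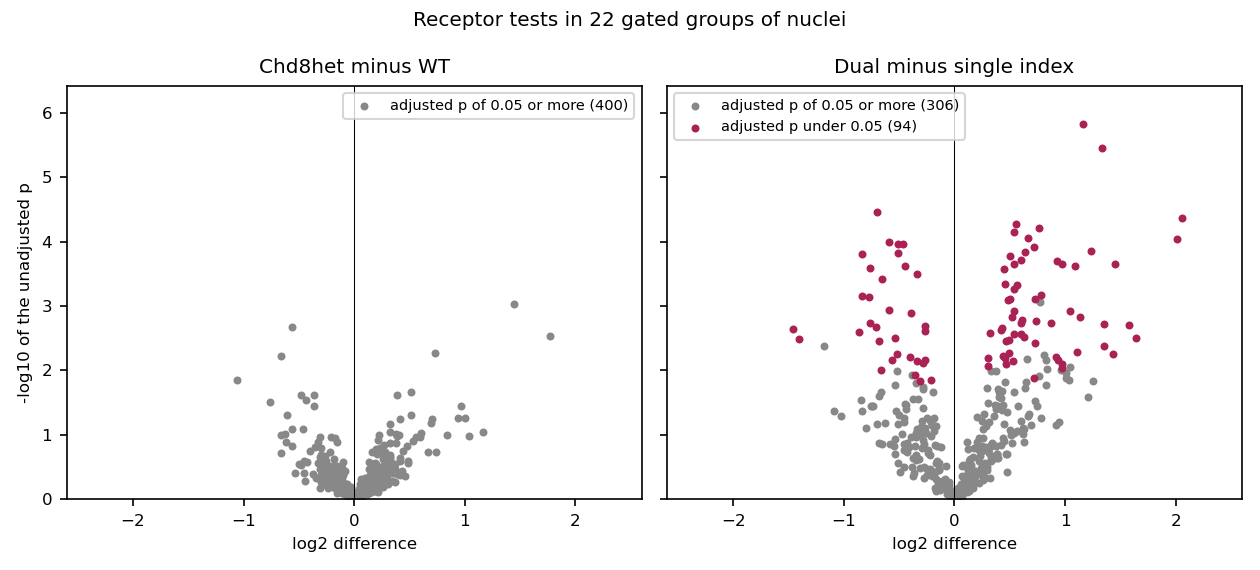
Each point is 1 receptor in 1 of 22 groups of nuclei, with the log2 difference on the x axis and the negative log10 of the unadjusted edgeR p on the y axis, for Chd8het minus WT (left, sex as a term) and dual minus single index (right, sex and genotype as terms). None of the 400 genotype tests and 94 of the 400 index tests pass an adjusted p of 0.05.

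With index type as a term beside sex, 0 receptor tests were called for genotype by edgeR (0.0111% of all genes' tests were) and 41 of 400 had an unadjusted p under 0.05 (10.2%, against 5.65% for all genes), and the replicate block gave 42 (10.5%). Both shares were above those of the fit with sex alone, for the receptors and for all genes. The difference in the genotype effect between the sexes, tested as an interaction, was called for 0 of 400 receptor tests by edgeR, where all genes also gave 0, with 8 receptor tests at an unadjusted p under 0.05 (2%, against 1.26% for all genes).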

How the data were processed

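UMI counts per gene and barcode were deposited by the authors for 8 libraries, already limited to cell barcodes. Per the submitters' processing notes, STAR 2.7.9a, STARsolo and Cell Ranger were used with mm10. The kit counts 3′ ends (10x v3 chemistry, per the labels' protocols), and whether strand or intron reads were used is not given in the sources used here.

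Nuclei with at least 500 genes and at most 5% mitochondrial UMIs were kept. Each was assigned by likelihood over 134 marker genes of 23 types, with a posterior of at least 0.95; 2744 nuclei had a posterior between 0.9 and 0.99. Nuclei better explained by 2 types of different classes, by a log-likelihood gain above 5, were dropped as doublets (6990, 8.51%). The gate did not screen for mixtures of 2 excitatory types or of 2 inhibitory types. Scrublet calls were used as an alternative. Every tested type had at least 3 markers raised against the rest, but L6b-like nuclei carried more of the L6 CT markers (median log level 1.2) than of their own (0.539). Glial and vascular types were shallow, microglia-like nuclei with a median of 1427 UMIs against 9483 in L2/3 IT-like nuclei.

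Counts were summed per library and type. CPM used TMM-scaled totals. edgeR 4.0.16 (quasi-likelihood, sex as a term, minimum count 10, two-sided, adjusted over all genes of a type) was the test, with DESeq2 1.42.0 as an alternative. The test was also run on simulated counts, and the outcome of that run is not given here. SE was taken as the log2 change over the root of F. Intervals at 95% used the normal distribution. Same-numbered libraries of a sex deviated together in all 88 pairs and types (correlation 0.139 to 0.641), and the labels name litter- and sex-matched pairs, so the numbers were taken as pairs; such libraries also share the index type, and the part of each in the correlation cannot be told apart. The tests took mice as replicates, 4 per genotype. Where a sum rested on few nuclei or few UMIs, that also limited the precision.

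Named genes were the 4 with most UMIs per family, the 10 receptor and type pairs with the smallest p, any called, and the 3 companion pairs with the smallest p. Members, lists and types were chosen with earlier results of these data known. Coordinates are GENCODE M21 on GRCm38; 46 receptors matched and 11 overlap another counted gene. Promoters on chromosome 18 were left out. The level of 1 receptor is not reported here.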

Additional observations from a re-analysis of the deposited data

Results flagged for a closer look

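Among 54 groups of 4 libraries of 1 genotype, 4 held a library far from the other 3 relative to their spread, and chance alone marks about 1 in 20. Htr2c in Sst-like, Htr4 in Sncg-like and Chrm2 in L5 ET-like nuclei had been chosen by a small genotype p, so that rate need not hold for them. The library of Chd8het male 2 read 650 CPM for Htr2c in Sncg-like nuclei, against 214 to 247 in the other Chd8het libraries. The same library read 165 CPM for Htr2c in Sst-like nuclei, against 24.5 to 44.8. WT male 2 read 29.2 CPM for Htr4 in Sncg-like nuclei, against 7.45 to 10.9 in the other WT libraries. WT female 1 read 34.5 CPM for Chrm2 in L5 ET-like nuclei, against 40.4 to 40.7.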

How the results depend on the processing

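Genotype called 0 receptors in the fit with sex alone, 1 without the count filter (Htr2c in Sst-like nuclei, log2 1.78, edgeR adjusted p = 2.14e-11; 0.108% of receptor tests, 0.0266% of all) and 1 with the replicate block (the same pair, 1.71, adjusted p = 0.0323), and 0 in each of the other 16 planned settings. With the filter the same counts gave an unadjusted edgeR p of 0.00298. The value of 2.14e-11 thus depends on the unfiltered fit and does not measure the spread of the Chd8het libraries, 24.5 to 165 CPM. The block changed no other receptor or companion call. Leaving out 1 pair of the block, a check chosen after seeing the data, left 1 call without female 1, 2 without female 2 (Htr2c in Sst-like and Htr4 in inhibitory nuclei, log2 0.51, adjusted p = 0.0199) and 0 without male 1 or male 2. Without female 2, 832 tests over all genes were called (0.316%, against 0.505% of receptor tests), beside 17 to 38 without another pair. Receptor tests at an unadjusted p under 0.05 ranged from 10 to 42 over the planned settings and from 23 to 55 with a pair of the block left out. Of 232 alternative values for the 13 named pairs, 230 kept their direction and side of the threshold and 0 reversed. Index calls ranged from 44 to 115 when 1 library was left out, with 44 without WT male 1, 54 without Chd8het male 1 and 61 without WT male 2, beside 94 with all; the share of all genes' tests called ranged from 8.9% to 18.2% in these fits. The count of receptors whose leading type stood clear was 3, and 2 under the stricter gate, which lost Drd1. Leaving out 1 library gave 3, or 4 without Chd8het female 2, which added Chrm2 in L5/6 NP-like nuclei. The stricter gate raised Adra1b in Vip-like nuclei to 347 CPM and Htr3a to 59.1, and the other 492 of 494 alternative levels moved by less than 1 SD. The leading type changed in at least 1 of 13 settings for 10 of 38 receptors: Chrna7, between Sncg-like and Lamp5-like nuclei, and others whose highest means were 0.639 to 6.73 CPM. Vip-like and Sncg-like nuclei numbered 40 to 74 and 34 to 51 per library, so low receptors rest on few UMIs there.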
